A study of Mus musculus with 10 samples.

Results

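The gene described here is Ebf1, read on comparative genomic hybridisation arrays from mouse leukemias. The leukemias carry BCR-ABL1, the fusion tyrosine kinase that gives them their name. Its window was chr11:44350000-44850000 in the mm9 build, and every probe placed wholly inside it was taken. That gave 1543 of the 402346 placed probes of the array. The gene itself takes up about 44.43 to 44.82 Mb of the window, a length of 390 kb covered by 1261 probes, with 204 probes in the flank proximal to it and 78 in the flank distal to it. Probes in the window started 293 bp apart in the median, against 5.34 kb over all autosomes, and the widest step between them was 3.21 kb. Tumours fell into 2 genotypes, 5 Ikzf1+/- and 5 Ikzf1+/+, and all 10 carried BCR-ABL1 and were sampled as GFP-positive cells of leukemic bone marrow. Each array set tumour DNA in Cy5 against DNA of non-leukemic, stage-matched bone marrow in Cy3, which the design text names as B220-positive B cells. Which Ikzf1 allele was altered, and whether tumours of a genotype came from separate animals, was not given in the sources used here, so the p-values speak only of the spread among these tumours.

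Ebf1 encodes early B-cell factor 1, a DNA-binding protein that commits lymphoid progenitors to the B lineage and switches on genes of the pre-B cell receptor together with E2A, Foxo1 and Pax5. Ikzf1 encodes Ikaros, a zinc-finger factor of the same stage of development. Deletions that remove parts of either gene are known from human B-cell precursor leukemia, where IKZF1 deletion is a recurrent lesion of BCR-ABL1 disease. On arrays of this kind each value is a log2 ratio of tumour over non-leukemic DNA, centred on the autosomal median of its array, so 0 stands for the usual autosomal copy number of that tumour. A ratio of 1 copy to 2 copies in every cell would be -1, and one of 3 copies to 2 would be 0.58. Bulk DNA cannot tell a change in a share of the cells from a change in copy number in all of them.

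RefSeq places Ebf1 on the plus strand, so the proximal end is read here as the 5′ end, where transcription starts. The letters before both annotated starts are shown because the largest change in the window took in this end of the gene. They come from the RefSeq table of build GRCm38.p6 and were not placed in mm9. The first lies at chr11:44617850-44618099 and the second at chr11:44619978-44620227, plus strand, 2128 bases apart, in lower case throughout since no part was singled out.
Ebf1 start 1: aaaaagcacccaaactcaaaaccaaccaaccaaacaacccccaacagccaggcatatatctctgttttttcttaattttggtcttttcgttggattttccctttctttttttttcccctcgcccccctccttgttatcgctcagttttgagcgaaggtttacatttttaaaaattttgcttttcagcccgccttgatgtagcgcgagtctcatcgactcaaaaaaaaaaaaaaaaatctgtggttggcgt
Ebf1 start 2: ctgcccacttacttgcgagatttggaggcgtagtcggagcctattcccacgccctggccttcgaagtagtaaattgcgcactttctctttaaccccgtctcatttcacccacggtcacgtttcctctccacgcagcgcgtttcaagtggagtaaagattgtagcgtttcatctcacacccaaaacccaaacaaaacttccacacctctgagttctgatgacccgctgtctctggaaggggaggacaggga
Each run holds 250 bases, and 40% of the letters before start 1 and 52% of those before start 2 were G or C, against a median of 52.4% over 32851 such runs in the table.

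Segmentation of each array on its own found that 4 of the 10 tumours had a stretch of the window that stood 0.1 or more away from its neighbours on the log2 scale. Ikzf1+/- tumour 5 had lost most of the gene with its 5′ end. Ikzf1+/- tumours 1 and 3 each had a short, shallow low stretch in the distal part of the gene, and Ikzf1+/+ tumour 5 had a raised stretch that overlapped both. The other Ikzf1+/- tumours, 2 and 4, and Ikzf1+/+ tumours 1 to 4 had no stretch of that size. A segment was called as a gain or a loss where it held at least 5 probes and its mean lay at least 0.3 from 0. By that rule 3 segments were called, 2 losses in Ikzf1+/- tumour 5 and 1 gain in Ikzf1+/+ tumour 5.

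**Figure D1:**
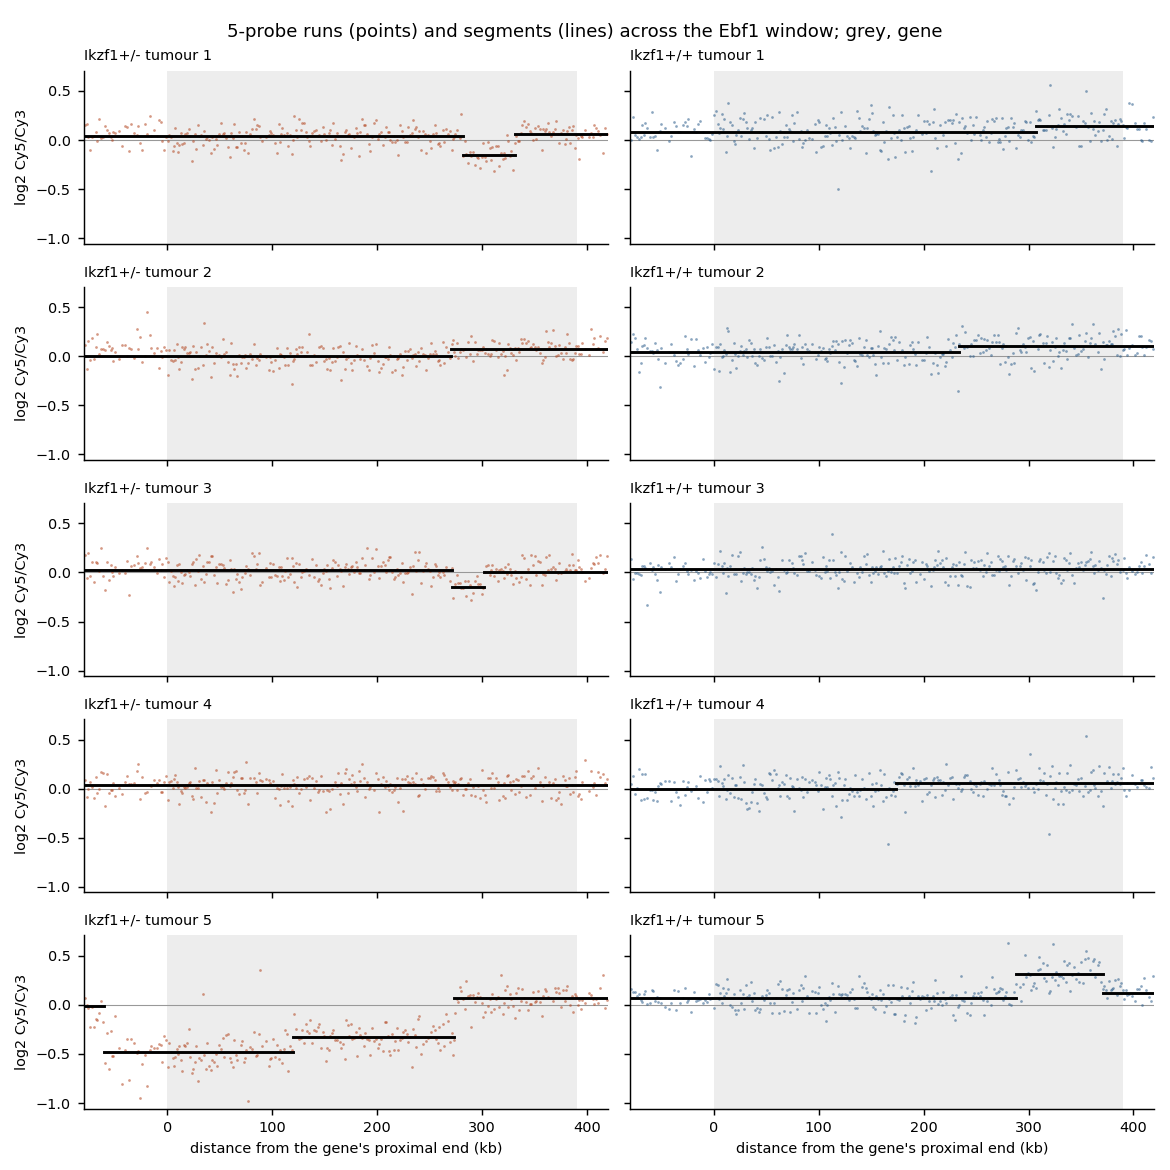
Log2 ratio of Cy5 (tumour) over Cy3 (non-leukemic) along the Ebf1 window in each tumour, Ikzf1+/- in the left column and Ikzf1+/+ in the right, against distance in kb from the approximate proximal end of the gene. Points are means of 5 consecutive probes, black lines are segment means and the grey band is the gene. Ikzf1+/- tumour 5 lies at -0.48 and then -0.33 before it returns to 0.07, and Ikzf1+/+ tumour 5 rises to 0.32 near the distal end.

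The loss of Ikzf1+/- tumour 5 ran from 44369539 to 44703340, over 334 kb and 1030 probes. It began 60.5 kb proximal of the gene, took in its 5′ end and the next 273 kb, which is 70.1% of the gene, and ended 117 kb before the distal end. Over this interval Ikzf1+/- tumours 1 to 5 had mean log2 ratios of 0.039, 0.0039, 0.021, 0.033 and -0.41, against 0.088, 0.047, 0.035, 0.018 and 0.067 in Ikzf1+/+ tumours 1 to 5. The 9 tumours without the loss averaged 0.039 ± 0.026 (SD, n = 9), and none of them came near the value of Ikzf1+/- tumour 5. In that tumour 94.0% of the 1030 probes lay below 0, and in the other Ikzf1+/- tumours and the Ikzf1+/+ tumours the share was between 33.5% and 48.2%. As a linear ratio the tumour signal was 24.7% lower than the non-leukemic signal.

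The loss had 2 levels. From 44369539 to 44549789, over 180 kb and 534 probes, the mean of Ikzf1+/- tumour 5 was -0.48 (SE 0.018 over probes of the same array). From 44550016 to 44703340, over 153 kb and 496 probes, it was -0.33 (SE 0.011). The step between these levels lay about 120 kb inside the gene and measured 0.15, while the same difference in the other 9 tumours lay between -0.011 and 0.013 with a mean of 0.0049 ± 0.0082 (SD, n = 9). Change points placed both outer edges between neighbouring probes. At the proximal edge the segment mean changed from -0.015 to -0.48 between probes 329 bp apart. At the distal edge it changed from -0.33 to 0.072 between probes 158 bp apart. The -0.015 is no local level, since 56 of the 6611 probes of that segment lay in the window. Nearer to that edge, runs of 5 consecutive probes from 44359545 to 44365277 read -0.23, -0.14, -0.15 and -0.081 in this tumour. The next run, from 44365531 to 44367768, read 0.038.

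Within the lost stretch 2 single probes stood high in Ikzf1+/- tumour 5. The probe at 44518636 to 44518695 read 3.46 in that tumour and -0.29 to 0.26 in the others, and the one at 44463222 to 44463281 read 3.27 against -0.22 to 0.10. Neither was both bright and unsaturated in each dye on every array, which 1477 of the 1543 probes were. Single probes were limited before change points were sought, so these 2 did not split the loss.

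DNA to either side of the window was near 0 in that tumour. The 1 Mb proximal to the window, with 178 probes, had a mean of 0.0088 in Ikzf1+/- tumour 5 and 0.0096 to 0.032 in the other Ikzf1+/- tumours, against 0.0098 to 0.060 in Ikzf1+/+ tumours. The 1 Mb distal to it, with 248 probes, had 0.074 and 0.034 to 0.063, against 0.055 to 0.134. The loss made up 1030 of the 1425 autosomal probes in called losses of that tumour, or 72.3%. This is a share of probes and not of lost DNA, since probes started 293 bp apart in the window against 5.34 kb over all autosomes. RefSeq names Rnf145, a ring-finger protein gene, as the nearest protein-coding neighbour on the proximal side and Clint1, which encodes a clathrin-interacting protein, on the distal side.

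The window was next set beside other densely tiled places of the genome. On the autosomes 217 bins of 100 kb held at least 100 probes, 4 of them wholly inside the window and 213 others. The others include the bins that the window's ends cut, whose parts inside the window held 128 and 146 probes. In Ikzf1+/- tumour 5 the window's part of the proximal cut bin had a mean of -0.30, so the others are not free of the loss. In Ikzf1+/- tumour 5, 3 of the 4 Ebf1 bins lay below every 1 of the 213 others, at -0.50 for the lowest against -0.20 for the lowest of the others. In the other 4 Ikzf1+/- tumours and the 5 Ikzf1+/+ tumours no Ebf1 bin lay below all others. In Ikzf1+/+ tumours the lowest of the other bins ran from -3.21 to -0.19.

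Ikzf1+/- tumour 1 had a low segment from 44712027 to 44760979, which is 49.0 kb, 160 probes and 12.6% of the gene. Its mean was -0.15 (SE 0.017 over probes), and 79.4% of its probes lay below 0. Ikzf1+/- tumours 2 to 5 had 0.051, -0.053, 0.016 and 0.041 there, against 0.13, 0.068, 0.042, 0.042 and 0.26 in Ikzf1+/+ tumours 1 to 5. Ikzf1+/- tumour 3 had a low segment from 44701721 to 44731599, which is 29.9 kb, 99 probes and 7.66% of the gene, with a mean of -0.14 (SE 0.018). Over that interval Ikzf1+/- tumours 1, 2, 4 and 5 had -0.079, 0.066, 0.029 and 0.0047, against 0.085, 0.063, 0.063, 0.040 and 0.20 in Ikzf1+/+ tumours 1 to 5. Both intervals were chosen on the low values of the tumour that holds them, so its place below the others is part of the choice. Neither segment reached the 0.3 of a called loss.

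The raised segment of Ikzf1+/+ tumour 5 ran from 44718315 to 44800797, over 82.5 kb, 265 probes and 21.1% of the gene, and ended 19.2 kb before the gene's distal end. Ikzf1+/- tumours 1 to 5 had mean log2 ratios of -0.038, 0.071, -0.0048, 0.036 and 0.047 over it, against 0.15, 0.099, 0.053, 0.049 and 0.32 in Ikzf1+/+ tumours 1 to 5. Ikzf1+/+ tumour 5 stood above the other 9 tumours, which averaged 0.051 ± 0.053 (SD, n = 9). As a linear ratio its tumour signal was 24.8% higher than the non-leukemic signal. Distal to the segment this tumour stayed at 0.12, and proximal to it at 0.069.

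**Figure D2:**
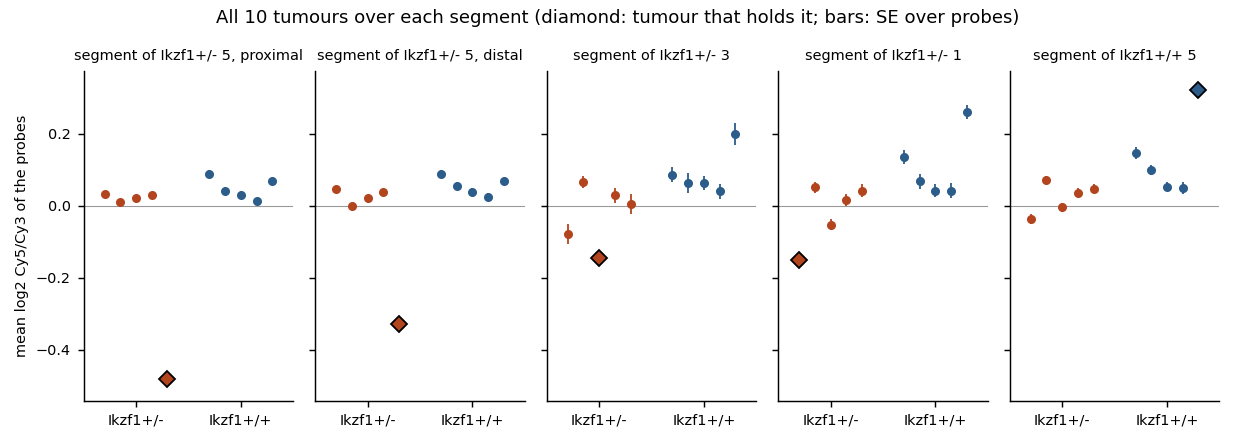
Mean log2 ratio of each tumour over the 5 segments that stood apart in a tumour, 1 panel per segment, with the 5 Ikzf1+/- tumours left of the 5 Ikzf1+/+ tumours in order of number. The diamond is the tumour in which the segment was found, and bars are the SE over probes. Each segment was chosen on the values of its own tumour, which lie from -0.48 to -0.14 in the 4 low segments and at 0.32 in the raised one.

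These distal segments shared ground. The low segments of Ikzf1+/- tumours 1 and 3 overlapped over 19.6 kb and 62 probes, 40.0% of the segment of tumour 1 and 65.5% of that of tumour 3. The low segment of Ikzf1+/- tumour 1 and the raised segment of Ikzf1+/+ tumour 5 overlapped over 42.7 kb, 87.2% of the low one and 51.7% of the raised one. With the limits above, all 3 shared 44718315 to 44731599, which is 13.3 kb with 42 probes. Its proximal limit is that of the raised segment, which moved with the processing. In that shared piece Ikzf1+/- tumours 1 to 5 had -0.16, 0.078, -0.15, 0.012 and 0.017, against 0.10, 0.15, 0.060, 0.10 and 0.28 in Ikzf1+/+ tumours 1 to 5.

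The window held 9 change points of 0.1 or more. Of these, 4 lay within 16.9 kb of each other, from 44701463 to 44718315, and came from 4 different tumours. They were the distal edge of the loss of Ikzf1+/- tumour 5 and the proximal edges of the segments of Ikzf1+/- tumours 1 and 3 and Ikzf1+/+ tumour 5. The edge of Ikzf1+/+ tumour 5 was placed no more closely than 44717667 to 44725429. With bright, unsaturated probes that segment began at 44725370, outside this stretch. The low segment of Ikzf1+/- tumour 3 began 1.62 kb before the loss of Ikzf1+/- tumour 5 ended. All 10 arrays shared the same probes and the same Cy3 kind of DNA, and whether this bears on where the edges fell was not tested.

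The dyes were read apart to see which channel carried each segment. In the proximal stretch of its loss Ikzf1+/- tumour 5 had a Cy5 signal 0.64 lower on the log2 scale than the mean of the other 9 arrays, after centring of each channel, and a Cy3 signal 0.038 lower, where the other arrays' Cy3 varied with an SD of 0.017. In the distal stretch the Cy5 difference was -0.41 and the Cy3 difference -0.025. The raised segment of Ikzf1+/+ tumour 5 had differences of 0.30 in Cy5 and 0.0033 in Cy3. For the low segment of Ikzf1+/- tumour 1 they were -0.26 and -0.036, and for that of Ikzf1+/- tumour 3 they were -0.20 and 0.0018. The other 9 arrays had an SD of 0.038 in Cy5 in the proximal stretch, and of 0.044 in Cy5 and 0.016 in Cy3 in the distal stretch. Over the raised segment these SDs were 0.066 in Cy5 and 0.018 in Cy3, and over the segment of Ikzf1+/- tumour 3 they were 0.074 and 0.026. Over the segment of Ikzf1+/- tumour 1 they were 0.093 in Cy5 and 0.017 in Cy3. Cy3 thus lay more than 1 SD below the other arrays in Ikzf1+/- tumour 1 and in both stretches of Ikzf1+/- tumour 5, and its part in those segments was not tested.

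**Figure D3:**
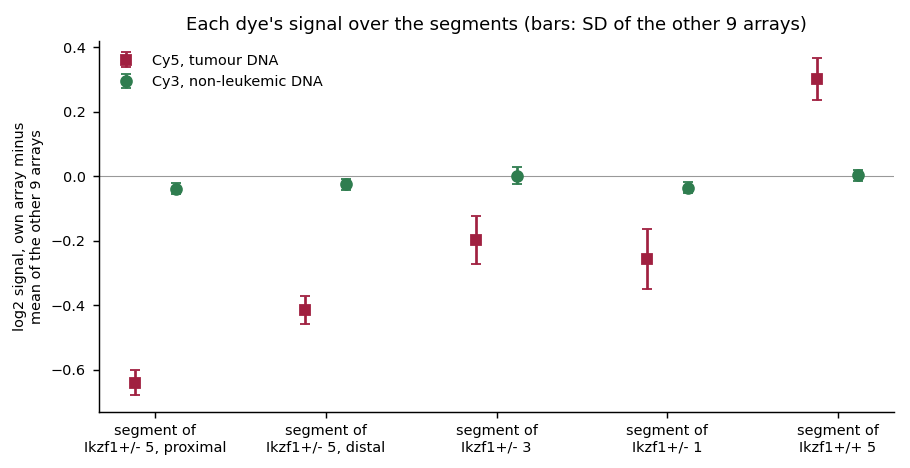
Difference of each dye's centred log2 signal between the array that holds a segment and the mean of the other 9 arrays, for the 5 segments. Squares are Cy5 (tumour DNA), circles are Cy3 (non-leukemic DNA) and bars are the SD of the other 9 arrays. Cy5 differences run from -0.64 to 0.30, and Cy3 differences stay between -0.038 and 0.0033.

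Low segments were found elsewhere on the autosomes too. Among autosomal segments of at least 50 probes over at most 400 kb, Ikzf1+/- tumours 1 and 3 had 3 and 4 at or below -0.1, of which 1 each lay in the Ebf1 window. Over all 10 tumours such low segments fell in 14 places, and the 12 places outside the window included 3 that several tumours shared. No lower limit was set, so the places include deep losses as well as shallow ones, with a lowest mean of -0.91 on chromosome 12. The place at the proximal end of chromosome 5, from 3008399 to 3461405, held low segments in all 5 Ikzf1+/- tumours and in 3 Ikzf1+/+ tumours. By the same measure the Ebf1 window held low segments in 3 Ikzf1+/- tumours and in 0 Ikzf1+/+ tumours, a count made after these segments were seen and not tested.

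In the tumours without such segments the window was nearly flat. Ikzf1+/- tumour 4 and Ikzf1+/+ tumour 3 had no change point in it. Ikzf1+/- tumour 2 and Ikzf1+/+ tumours 1, 2 and 4 had 1 small step each, of 0.058 to 0.071, and all 4 steps went up towards the distal end. These steps lay between 44603346 and 44736655. The means of Ikzf1+/- tumour 2 were 0.0077 before 44700609 and 0.079 after it, and those of Ikzf1+/+ tumour 1 were 0.082 before 44736655 and 0.14 after it. These are means of whole segments that reach outside the window. In Ikzf1+/- tumour 2, 1074 of 2730 and 469 of 658 probes lay inside it, and in Ikzf1+/+ tumour 1, 1193 of 1428 and 350 of 695. Among runs of 5 consecutive probes, the lowest of each tumour lay between -0.98 and -0.19 and the highest between 0.25 and 0.63. The lowest of all was that at 44505939 to 44507754 in Ikzf1+/- tumour 5, and the highest of all was that at 44709214 to 44710742 in Ikzf1+/+ tumour 5. This highest run lies proximal of that tumour's raised segment. It holds the probe at 44709214 to 44709273, which read 2.20 in Ikzf1+/+ tumour 5 and was not bright and unsaturated on all arrays.

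The genotypes were then compared over the window and its parts. The whole window had means of 0.025, 0.027, 0.017, 0.034 and -0.26 in Ikzf1+/- tumours 1 to 5, against 0.10, 0.063, 0.039, 0.027 and 0.12 in Ikzf1+/+ tumours 1 to 5. Ikzf1+/- tumour 5 was far below the rest, and of the other 4 only Ikzf1+/- tumour 4 lay above the lowest Ikzf1+/+ tumour, which was tumour 4. The Ikzf1+/- mean was -0.031 ± 0.127 and the Ikzf1+/+ mean 0.070 ± 0.040 (SD, n = 5 each), a difference of -0.10 (two-sided exact permutation p = 0.0159, adjusted over 4 parts 0.0317). The smallest p that 252 splits allow is 0.00794.

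Over the gene body alone Ikzf1+/- tumours 1 to 5 had 0.018, 0.014, 0.0081, 0.033 and -0.26, against 0.10, 0.063, 0.043, 0.029 and 0.13 in Ikzf1+/+ tumours 1 to 5. The genotypes overlapped only in Ikzf1+/- tumour 4 and Ikzf1+/+ tumour 4. The means were -0.037 ± 0.124 and 0.074 ± 0.042 (SD, n = 5 each), a difference of -0.11 (exact permutation p = 0.0159, adjusted 0.0317). Without Ikzf1+/- tumour 5 the differences shrank to -0.045 for the window and -0.055 for the gene body, with adjusted exact permutation p of 0.127 for both. The call was also lost without any 1 of the 5 Ikzf1+/+ tumours (adjusted p 0.0952 to 0.302), with differences that stayed between -0.112 and -0.089 for the window and between -0.122 and -0.096 for the gene body. It was lost too after normexp background correction (0.762 for the window and 0.730 for the gene body) and with centring on the rest of chromosome 11 (0.0952 and 0.0635).

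The flanks did not pass the test. In the proximal flank the mean was -0.032 ± 0.196 in Ikzf1+/- and 0.042 ± 0.035 in Ikzf1+/+ tumours (exact permutation p = 0.754, n = 5 each), with -0.38 in Ikzf1+/- tumour 5 and 0.034 to 0.072 in the other Ikzf1+/- tumours. Without Ikzf1+/- tumour 5 the difference turned to 0.014. The distal flank, which the loss did not reach, had 0.068 ± 0.025 in Ikzf1+/- and 0.095 ± 0.037 in Ikzf1+/+ tumours, a difference of -0.028 (exact permutation p = 0.222, adjusted 0.296).

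**Figure D4:**
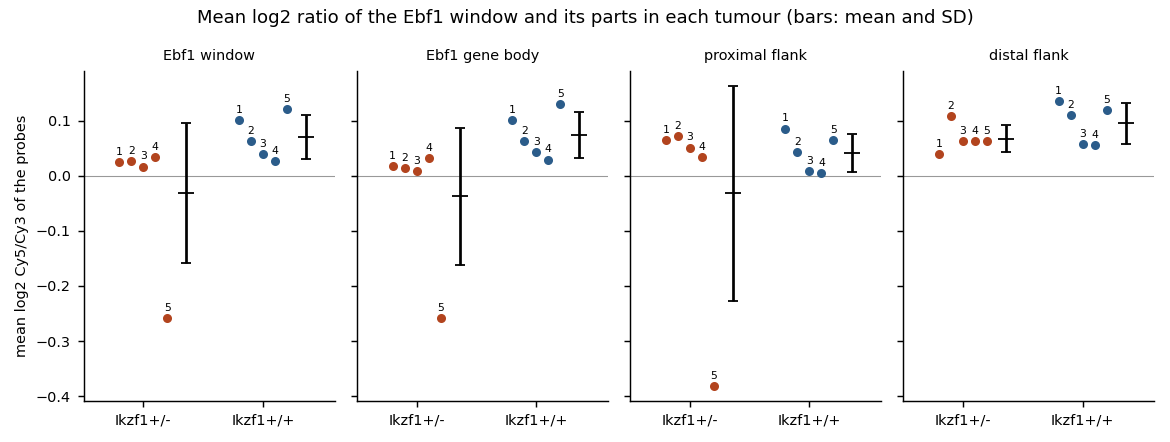
Mean log2 ratio over the probes of the Ebf1 window, the gene body and both flanks in each tumour, Ikzf1+/- left of Ikzf1+/+, with the tumour's number beside each point and the mean and SD of the genotype as bars. Ikzf1+/- tumour 5 lies at -0.26, -0.26 and -0.38 in the first 3 panels and among the others, at 0.062, in the distal flank.

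Signal differed between the genotypes on these arrays. The median Cy5 signal per array was 199 to 225 in Ikzf1+/- and 88.4 to 159 in Ikzf1+/+ tumours, and the Cy3 medians were 146 to 165 and 164 to 179. The arrays came on 5 slides, of which 1 held both genotypes, namely Ikzf1+/- tumour 1 and Ikzf1+/+ tumour 5. Within that slide, 1 tumour against 1, the differences were -0.096 for the window and -0.11 for the gene body. These tumours hold a low segment and the raised segment of the distal part of the gene. In the proximal flank they differed by -0.00020. The part of the signal levels in the differences between genotypes was not tested.

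At finer grain, runs of 5 consecutive probes were tested with limma over all 76491 autosomal runs. Of the 308 runs of the window, 0 differed between the genotypes after Benjamini-Hochberg adjustment, where 0.165% of all runs did, and the smallest adjusted p was 0.0977. At an unadjusted p under 0.05 there were 56 such runs, or 18.2%, all lower in Ikzf1+/- tumours, against 12.2% of all runs in either direction. The median difference was -0.0996 in the window and 0.0039 over all runs, and without Ikzf1+/- tumour 5 the window's median difference was -0.042. Without that tumour 38 runs, or 12.3%, passed the unadjusted threshold, close to the 10.8% of all runs in the same fit.

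The run from 44784546 to 44785858 lay at 0.12, 0.032, 0.11, 0.065 and 0.032 in Ikzf1+/- tumours 1 to 5, against 0.50, 0.23, 0.11, 0.54 and 0.55 in Ikzf1+/+ tumours 1 to 5. The genotypes overlapped only at Ikzf1+/+ tumour 3, and the difference was -0.32 (limma adjusted p = 0.114). A single probe of 60 bases in it, from 44785008 to 44785067 and 355 kb from the gene's proximal end, read -0.068, -0.15, 0.22, -0.064 and -0.22 in Ikzf1+/- tumours 1 to 5, against 1.91, 0.76, 0.52, 2.12 and 0.97 in Ikzf1+/+ tumours 1 to 5. All Ikzf1+/+ values lay above all Ikzf1+/- values. This probe had the largest genotype difference of the window, -1.31, and was chosen for it, so no test is given.

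Its neighbours did not share that pattern. Among the 5 probes on either side, 10 in all, the genotype difference lay between -0.30 and 0.13. Without this probe, the other 4 probes of the run had a mean of 0.10 ± 0.036 in the Ikzf1+/- group, against 0.17 ± 0.17 in the Ikzf1+/+ group (SD, n = 5 each). The probe was bright and unsaturated on every array. Its background-subtracted Cy5 signals, taken before dye normalisation, were 244 to 298 in Ikzf1+/- and 205 to 570 in Ikzf1+/+ tumours. In Cy3 they were 193 to 240 and 147 to 211. The log2 ratios above use dye-normalised signals, so ratios of these ranges do not reproduce them. Of the 11 single probes at the extremes of the window, 2 were bright and unsaturated on all arrays and 9 were not.

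Against non-leukemic DNA, 29 runs of the window were called higher in the mean of both genotypes and 0 lower (limma adjusted p under 0.05), where 4.67% of all runs were called higher and 5.29% lower. The 29 are 9.42% of the window's runs. Of these, 27 lay distal of the loss of Ikzf1+/- tumour 5, among 91 runs there, and 2 among the other 217 runs. That tumour is part of the tested mean, and its loss lowers the mean and widens the spread of the runs it covers. Without it 40 runs were called higher, or 13.0% of the window's runs against 2.61% of all runs, of which 21 lay distal of the loss and 19 among the others. The raised segment of Ikzf1+/+ tumour 5 lies distal of the loss and enters the same mean. Without Ikzf1+/+ tumour 5, 18 runs were called higher (5.84%, against 2.59% of all runs), 17 distal of the loss and 1 among the others. The 29 runs called in the fit on all 10 tumours had means of 0.078 to 0.229, and 18 of the 29 were above 0 in all 10 tumours. The runs were called for a high mean over these same tumours, so both values are in part fixed by that choice. At an unadjusted p under 0.05 the window had 64 runs of either sign, or 20.8%, which is below the 28.1% of all runs.

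The run from 44768905 to 44770605 read 0.19, 0.17, 0.15, 0.13 and 0.071 in Ikzf1+/- tumours 1 to 5, against 0.26, 0.19, 0.20, 0.25 and 0.14 in Ikzf1+/+ tumours 1 to 5, with a mean of 0.17 (limma adjusted p = 0.000725). All 10 tumours were above 0 there, which the choice among called runs favours, and the genotypes overlapped. The run from 44790511 to 44791686 had a mean of 0.18 (limma adjusted p = 0.00519), with 0.035 to 0.26 in Ikzf1+/- and 0.068 to 0.45 in Ikzf1+/+ tumours. Both runs lie inside the raised segment of Ikzf1+/+ tumour 5, a tumour that read 0.14 and 0.45 in them, in that order. Dyes were not swapped on any array, so a dye effect at a probe cannot be told apart from a shared gain. The count was 18, or 5.84% of the window's runs, without Ikzf1+/- tumour 2 (2.61% of all runs in that fit) and without Ikzf1+/+ tumour 5 (2.59% of all runs).

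**Figure D5:**
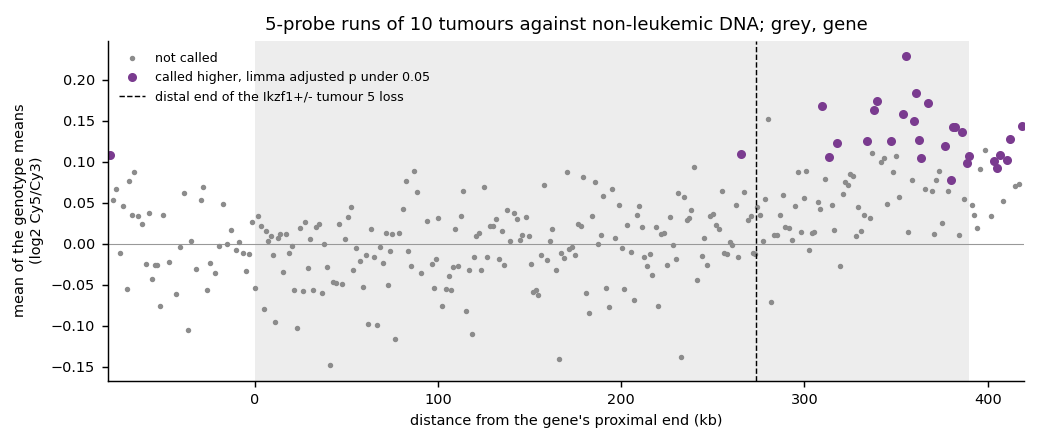
Mean log2 ratio of 5-probe runs over both genotypes, against distance in kb from the approximate proximal end of the gene (grey band). Purple points are the 29 runs called higher against non-leukemic DNA, grey points are runs not called, and the dashed line is the distal end of the loss of Ikzf1+/- tumour 5. That tumour enters the mean: 27 called runs lie to the right of the line, and 21 of 40 without it. Ikzf1+/+ tumour 5, with its raised segment right of the line, enters it too, and without that tumour 17 of 18 lie there.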

How the data were processed

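Agilent 2-colour arrays of 10 tumours were read from the deposited scanner files. Per the file headers, Agilent Feature Extraction 10.7.3.1 with a CGH lowess protocol gave background-subtracted, dye-normalised Cy5 and Cy3 intensity values on build mm9 and a log10 ratio; the submitters' processing notes name version 10.5.1.1. The deposited series matrix held log2 ratios with a slope of 1.00 on the scanner's own ratio and was not centred. The median of its columns, Ikzf1+/- tumours 1 to 5 first, was -0.0011, -0.0011, -6e-04, -0.0019 and -0.0030, then for Ikzf1+/+ tumours -0.010, -0.010, -0.019, -0.011 and -0.014. From the processed signals, log2 of Cy5 over Cy3 was computed here without outlier-flagged spots (1 of 15430 window values was lost, in Ikzf1+/- tumour 3), averaged per probe and centred on the autosomal median.

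Change points were found per array by penalised least squares (PELT, penalty constant 2, at least 3 probes, single probes limited to 4 noise SDs; numpy 2.4.6, numba 0.67.0, Python 3.11.15). Runs were fitted with limma 3.58.1 (lmFit and eBayes, R 4.3.3) on all autosomal runs and called at an adjusted p of 0.05, and means were compared with exact permutation tests. Alternatives were normexp on median signals (offset 50), loess, the deposited matrix, flagged spots kept, bright probes, medians, centring on chromosome 11, tumours left out, the replicate block, slide, other run limits and other call settings. The code was tested on simulated data. The number of arrays limits the precision. Named runs are at most 8 called runs per direction by size, or else the 3 highest and 3 lowest; named probes are the 3 at each extreme of the mean and of the genotype difference; the highest and lowest run of each tumour are included. The members, parts and lists were chosen with earlier results of these data known. No mm9 gene position was used beyond the approximate ends of Ebf1, so the planned test over genes, the list of B-lineage genes, other Ebf genes and the copy number of Ikzf1 are not analysed here.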

Additional observations from a re-analysis of the deposited data

Results flagged for a closer look

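Tumours further from the rest of their genotype than Dixon's test allows for 5 samples were sought in 20 groups of 5. In 8 groups, the window and its parts, 3 had such a tumour, where chance flags about 1 in 20 groups. Ikzf1+/- tumour 5 was the lowest in each, with mean log2 ratios of -0.258 over the whole window, -0.258 over the gene body and -0.381 in the proximal flank, and these 3 groups share the same loss. The other 12 groups are intervals chosen because a tumour stood apart in them, so that chance rate does not apply to them, and 4 had such a tumour. Ikzf1+/- tumour 5 was the lowest over its own loss, at -0.483 and -0.329 in the proximal and distal stretch and -0.409 over the whole, which the choice of interval fixed. Ikzf1+/+ tumour 5 was the highest of its genotype, at 0.199, over the low segment of Ikzf1+/- tumour 3, which its raised segment overlaps in part.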

How the results depend on the processing

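Leaving out each tumour in turn, the genotype difference ranged from -0.118 to -0.045 for the window, from -0.128 to -0.055 for the gene body, from -0.0996 to 0.014 for the proximal flank and from -0.038 to -0.018 for the distal flank. The window and gene body were no longer called, with differences of -0.066 and -0.080 after normexp and -0.088 and -0.098 with centring on chromosome 11. The distal flank turned to 0.0079 after normexp and was -0.080 within the slide that held both genotypes. Replicate numbers share only a number: same-numbered tumours correlated at -0.013 to 0.12, and 2 of 5 correlated best with their own number. With the replicate block, the differences of -0.10 and -0.11 had an exact sign-flip p of 0.125 (0.25 adjusted, where the smallest possible p is 0.0625). In the limma fit with that block 0 runs of the window were called between genotypes, against 0.114% of all runs. Runs called between genotypes were 6 after normexp (1.95%, against 2.27% of all runs in that fit), 1 with bright, unsaturated probes (0.340% against 0.193%) and 0 to 2 without a tumour, the 2 without Ikzf1+/+ tumour 3 (0.649% against 0.458%). Runs called higher against non-leukemic DNA were 18 to 40 without a tumour (5.84% to 13.0% of the window's runs, against 2.44% to 5.46% of all runs over those fits). Called segments were 0 at a threshold of 0.5, 6 with no limit on single probes and 5 with a penalty constant of 1, against 3. The 5 include a loss of 5 probes at -0.75 in Ikzf1+/+ tumour 4, and the others lie in the loss of Ikzf1+/- tumour 5 and the gain of Ikzf1+/+ tumour 5. That loss of 5 probes holds the probe at 44596068 to 44596127. It read -2.73 in Ikzf1+/+ tumour 4 and was not bright and unsaturated on all arrays. After normexp the segment means were -0.40 and -0.29 in Ikzf1+/- tumour 5 and 0.38 in Ikzf1+/+ tumour 5, and 2 segments were called; this check of segment means was chosen after seeing the data. The cause of these changes was not tested. The test over genes was not run.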
